A study of Arabidopsis thaliana with 6 samples.

Results

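MIR472, MIR825 and MIR863 are 3 Arabidopsis thaliana microRNA (miRNA) loci linked to plant immunity. Their members here are every row of the deposited count table whose locus name belongs to 1 of these families, with both precursor arms taken in. This gave 5 mature sequences from 3 loci, out of 294 mature sequences listed: miR472-5p, miR472-3p, miR825-3p, miR863-5p and miR863-3p. The opposite arm of MIR825 was not analysed here.

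Seedlings from shaking liquid culture were treated for 90 min with 1 µM epibrassinolide (epiBL, an active form of the brassinosteroid growth hormones) or with solvent only (control), with 3 biological replicates per group. Plants of both groups carried the receptor mutation bri1-5 together with a Flag-tagged wild-type BRI1, the brassinosteroid receptor, driven by the native promoter. The controls were therefore complemented mutants and not wild-type plants, and whether the transgenic material was 1 line is not given in the sources used here. The comparison addresses which small RNAs respond to the hormone. A table of mature miRNAs from whole seedlings holds no defining marker of a tissue or cell type, so the tissue label was not checked against one.

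A miRNA is cut from a hairpin precursor, and 1 arm of the resulting duplex guides an ARGONAUTE protein to matching mRNAs. In plants a guide of 22 nt commonly starts production of secondary siRNAs from the mRNA it cleaves. miR472-3p is such a guide: it acts on mRNAs of coiled-coil (CC) NBS-LRR receptors, intracellular immune receptors that detect pathogen effectors, and restrains basal and effector-triggered defence. MIR825 products were described as falling after bacterial elicitors or defence-priming bacteria. miR863-3p is induced by Pseudomonas syringae and was described to silence first pseudokinase regulators of immunity and later SERRATE, a cofactor of miRNA biogenesis. Brassinosteroid signalling and immune signalling share co-receptor kinases, and the hormone can dampen elicitor responses.

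The mature sequences are shown because each row of the table is defined by one of them. They are written 5′ to 3′ as deposited, with T for U, and capitals mark the seed (bases 2 to 8).
miR472-3p: tTTTTCCTactccgcccatacc
miR472-5p: aTGGTCGAagtaggcaaaatc
miR825-3p: tTCTCAAGaaggtgcatgaac
miR863-3p: tTGAGAGCaacaagacataat
miR863-5p: tTATGTCTtgttgatctcaat

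The 5 seeds all differ. The seed of miR472-3p is also that of miR865-3p among the listed sequences, and no other member shares its seed with another row. miR472-3p was 22 nt long, as were 11.2% of the 294 sequences, and the other members were 21 nt long, as were 76.9%. miR472-5p starts with A, as did 29.8% of 141 5p sequences. The other 4 start with U, as did 56.2% of 153 3p sequences and 56.0% of 5p sequences. A first U is the base favoured by ARGONAUTE1 and a first A that favoured by ARGONAUTE2. GC content was lowest in the MIR863 products, at 28.6% for miR863-5p and 33.3% for miR863-3p, against 42.9% for miR472-5p and miR825-3p and 50% for miR472-3p. The nearest other row of equal length differed from a member by 8 bases or more, and no other row was within 2 bases of a member or contained a member with 2 bases trimmed from each end.

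Each sequence matched the TAIR10.1 assembly at 1 place. miR472-5p lies at chr1:4182266-4182286 and miR472-3p at chr1:4182143-4182164, both on the minus strand in the MIR472 precursor (AT1G12294, 168 bases). The precursor itself sits inside AT1G12290, a gene on the same strand annotated as a CC-NBS-LRR disease resistance protein. There both arms fall in an exon of 1 of its 4 transcripts and in no coding sequence. miR825-3p lies at chr2:11159774-11159794 on the plus strand in the MIR825 precursor (AT2G26211, 186 bases), within exons of the transcribed pseudogene AT2G26220. miR863-5p lies at chr4:7846644-7846664 and miR863-3p at chr4:7846835-7846855, both on the plus strand in the MIR863 precursor (AT4G13494, 303 bases). No member overlaps coding sequence.

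The MIR863 stretch from the first base of miR863-5p to the last base of miR863-3p (chr4:7846644-7846855, plus strand, TAIR10.1, 212 bases) is shown because its 2 arms differed so widely in level. Capitals mark the mature sequences.
MIR863: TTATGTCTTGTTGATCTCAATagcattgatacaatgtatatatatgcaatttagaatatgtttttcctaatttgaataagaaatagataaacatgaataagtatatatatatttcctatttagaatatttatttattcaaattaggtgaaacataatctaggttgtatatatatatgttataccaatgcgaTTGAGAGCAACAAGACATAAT

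In a structure predicted with RNAfold, 19 of the 21 bases of miR863-3p paired with miR863-5p, and the whole precursor had a minimum free energy of -139.5 kcal/mol. For MIR472 the energy was -54.4 kcal/mol, and 16 of the 22 bases of miR472-3p paired with miR472-5p. For MIR825 it was -53.8 kcal/mol, with 17 of the 21 bases of miR825-3p paired. These are predictions from sequence and not measurements.

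Complementary stretches, a search added after the counts had been seen, were looked for without gaps in 52059 RefSeq mRNAs of 31346 genes. A mismatch counted 1 and a G:U pair 0.5, doubled at miRNA positions 2 to 13, and a total of 4 or less was kept. miR472-3p had such a stretch in 16 genes, all of them in coding sequence. Of these 16 genes, 14 carried a product name of the disease resistance or NB-ARC classes, as did 194 of all the genes searched (0.619%). The genes include SUMM2, a receptor that monitors a MAP kinase cascade. The 3 best-matched genes and SUMM2 are shown, 5′ to 3′ on the mRNA strand, with capitals at bases that do not form a Watson-Crick pair with miR472-3p.
AT1G51480 (chr1:19092853-19092874, minus strand): ggtatgggGggagtaggaaaaa
AT5G43740 (chr5:17566541-17566562, plus strand): ggtatgggGggagtaggaaaaa
AT1G12290 (chr1:4180683-4180704, minus strand): ggCatgggTggagtaggaaaaa
SUMM2 (chr1:4176992-4177013, minus strand): ggCatgggTggagtaggCaaaa

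The stretch in AT1G12290, the gene that contains MIR472, had a penalty of 1.5, after 1.0 in AT1G51480 and AT5G43740. The penalty was 3.5 in SUMM2. miR863-3p had a stretch in 3 genes, of which 1 was SERRATE, where it lay in the 3′ UTR with 2 mismatches and a penalty of 4.0. It is shown, with capitals at the mismatches, because SERRATE is a described target.
SERRATE (chr2:11576469-11576489, plus strand): attatgtcttgttCctcCcaa

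The other 2 genes were AT1G12310, annotated as a calcium-binding EF-hand protein, with a penalty of 3.5, and UMAMIT33, a transporter, with 4.0. None of the 3 genes carried a kinase or pseudokinase product name, so the search did not return the described pseudokinase regulators. SERRATE itself was kept only at the largest penalty allowed. miR863-5p had a stretch in ATJ1 and IMPA-7, miR825-3p in AT1G36185 alone, and miR472-5p had 0. A stretch of this kind describes letters only, and no mRNA was measured here.

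Total counts were 2050074 to 4112329 in the epiBL libraries and 3878714 to 4482479 in the controls, the lowest in epiBL replicate 3. The 5 members together took 0.0450%, 0.0420% and 0.0466% of the counts in epiBL replicates 1 to 3, against 0.0507%, 0.0446% and 0.0463% in control replicates 1 to 3. A total of 148 sequences passed the filter on low counts, among them all members but miR863-5p. Levels are normalised counts (CPM, edgeR's counts scaled to library size and TMM factor), and because each read counted is a full mature sequence they need no correction for length. When edgeR's quasi-likelihood model was fitted to these and its p-values were Benjamini-Hochberg adjusted, 8.11% of the 148 had an adjusted p under 0.05. Of the 148, 5.41% passed with a lower level in epiBL, and in 27.7% the 3 epiBL libraries lay wholly above or wholly below the 3 controls. Among the 4 members tested, 0 rose, 1 fell and 3 did not pass, and the groups were apart in that 1 only.

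miR863-3p, the strand described to silence immune regulators, fell. Its normalised count was 38.5, 36.2 and 25.7 CPM in epiBL replicates 1 to 3, against 48.5, 55.2 and 51.9 CPM in control replicates 1 to 3. All 3 epiBL libraries were below all 3 controls, with epiBL replicate 3, which had 46 reads of this sequence, the lowest. Counting error alone puts that value between 18.8 and 34.3 CPM (95% Poisson interval). The means were 33.5 ± 6.81 CPM with epiBL and 51.8 ± 3.33 CPM in controls (SD, n = 3 each), a fitted level of 0.661 of the control. The log2 fold change was -0.60 (SE 0.16, edgeR adjusted p = 0.0275), the ninth smallest p of the 148. In whole seedlings, fewer cells that hold this miRNA and less of it per cell cannot be told apart. Without epiBL replicate 3 the log2 fold change was -0.46 and the call was lost (edgeR adjusted p = 0.123). It was also lost without control replicate 2 (-0.55, adjusted p = 0.0723) or control replicate 3 (-0.59, adjusted p = 0.0744), and in limma-trend after removal of a trend with GC content (-0.61, limma adjusted p = 0.0637, GC being an alternative added after seeing the data), but the direction was kept throughout. In the authors' deposited table the signed fold of miR863-3p is -1.50 with an unadjusted p of 0.000224, which adjustment over the 294 rows of the authors' deposited table turns into 0.00939.

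**Figure D1:**
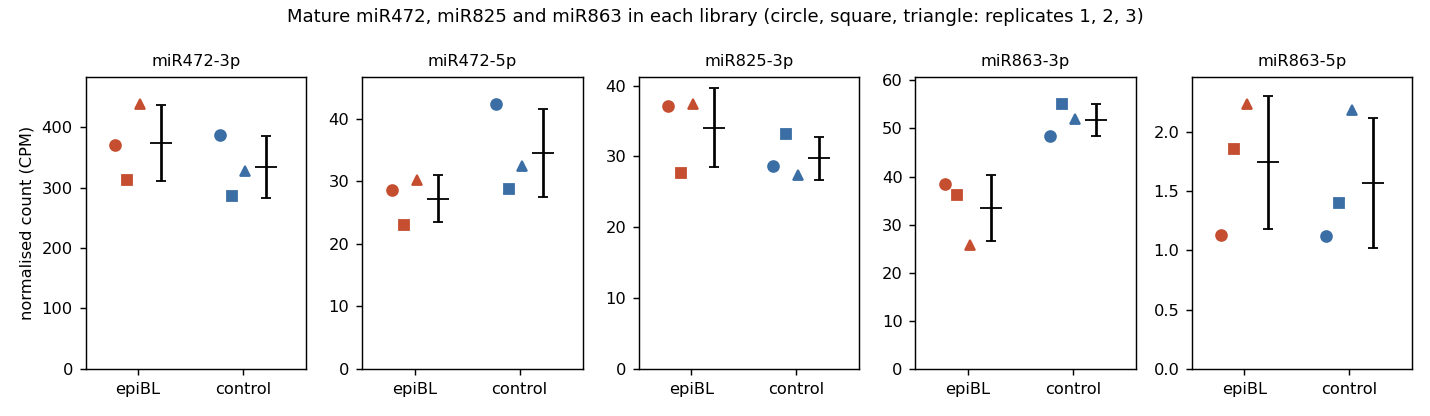
Normalised counts (CPM, each panel with its own axis from 0) of the 5 mature sequences in the 3 epiBL and 3 control libraries; symbols are single libraries, and bars give the mean ± SD. The groups are apart for miR863-3p alone, with epiBL at 25.7 to 38.5 CPM and controls at 48.5 to 55.2 CPM.

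miR863-5p, the other strand of the same duplex, was too rare to be tested. It had 4, 8 and 4 reads in epiBL replicates 1 to 3, against 5, 6 and 9 reads in control replicates 1 to 3. These are 1.13 to 2.24 CPM with epiBL and 1.12 to 2.18 CPM in controls, and the ranges overlap almost wholly. The 95% Poisson interval of the highest epiBL value, 0.609 to 5.73 CPM, spans every other library's value. No group difference was tested for it. Of the reads of both arms, miR863-5p took 2.86%, 4.88% and 8.0% in epiBL replicates 1 to 3, against 2.25%, 2.48% and 4.04% in control replicates 1 to 3. The share did not separate the groups (two-sided exact permutation p = 0.2, where 3 against 3 libraries cannot go below 0.1).

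miR472-3p, the guide that acts on CC-NBS-LRR mRNAs, was the most abundant member and ranked between 35 and 41 of the 294 sequences in every library. It had 370.2, 312.6 and 438.8 CPM in epiBL replicates 1 to 3, against 387.5, 285.4 and 327.3 CPM in control replicates 1 to 3. The ranges overlap, and epiBL replicate 3 was the highest. The means were 373.9 ± 63.2 CPM with epiBL and 333.4 ± 51.3 CPM in controls (SD, n = 3 each). The log2 fold change was 0.16 (SE 0.14, edgeR adjusted p = 0.476), with a 95% interval of -0.13 to 0.45, and did not pass. It was 0.05 without epiBL replicate 3 or without control replicate 2, 0.29 without epiBL replicate 2, 0.28 without control replicate 1 and 0.02 under total counts.

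miR472-5p, the passenger strand, had 28.6, 23.0 and 30.2 CPM in epiBL replicates 1 to 3, against 42.5, 28.8 and 32.5 CPM in control replicates 1 to 3. Here 2 epiBL libraries lay below all controls, the third lay above control replicate 2, and the groups overlap. The means were 27.2 ± 3.79 CPM with epiBL and 34.6 ± 7.09 CPM in controls (SD, n = 3 each). The log2 fold change was -0.37 (SE 0.19, edgeR adjusted p = 0.226), with a 95% interval of -0.77 to 0.04, and did not pass. It was -0.18 without control replicate 1 and -0.23 without epiBL replicate 2 or after thinning to the shallowest library.

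The ratio of the 2 MIR472 strands was set apart by group without passing its test. miR472-5p took 7.17%, 6.85% and 6.44% of the reads of both arms in epiBL replicates 1 to 3, against 9.88%, 9.15% and 9.03% in control replicates 1 to 3. All epiBL shares were below all control shares, with means of 6.82% ± 0.367 with epiBL and 9.35% ± 0.457 in controls (SD, n = 3 each). The counting intervals of single libraries overlapped in most pairs of an epiBL and a control library. Such overlap is no test of the difference between the groups. The 95% Clopper-Pearson interval was 5.88% to 8.64% in epiBL replicate 1, against 7.62% to 10.6% in control replicate 3. The interval of control replicate 1, 8.58% to 11.3%, lay above those of epiBL replicates 2 and 3 and overlapped that of epiBL replicate 1. On the log2 scale, the 5p over 3p ratio was -3.77 ± 0.08 with epiBL and -3.27 ± 0.08 in controls (SD, n = 3 each). The difference of -0.49 (SE 0.15) did not pass limma's test over 45 arm pairs (adjusted p = 0.118), and an exact permutation test of this pair gave 0.1, the smallest p that 3 against 3 libraries allow. Of the 45 pairs, 2.22% passed and 26.7% had groups that did not overlap.

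**Figure D2:**
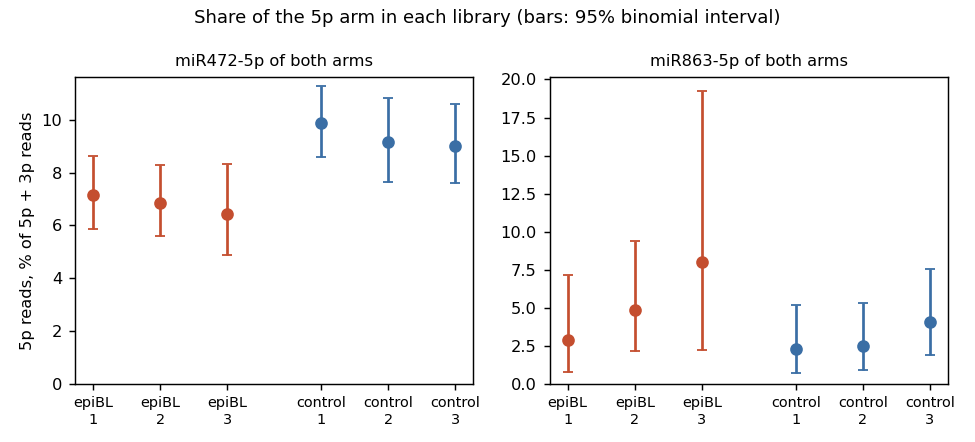
Reads of the 5p arm as a percentage of the reads of both arms at MIR472 and MIR863 in each library, with 95% binomial (Clopper-Pearson) intervals that cover counting error only. At MIR472 the epiBL shares span 6.44% to 7.17% and the control shares 9.03% to 9.88%. The single-library intervals of epiBL replicate 1 and of control replicates 2 and 3 reach those of every library in the other group. Such overlap is no test of the group difference. At MIR863 the intervals of all libraries overlap.

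miR825-3p had 37.1, 27.6 and 37.5 CPM in epiBL replicates 1 to 3, against 28.6, 33.2 and 27.4 CPM in control replicates 1 to 3. The ranges overlap, since epiBL replicate 2 lay among the controls while the other epiBL libraries lay above them. The means were 34.1 ± 5.58 CPM with epiBL and 29.7 ± 3.06 CPM in controls (SD, n = 3 each). The log2 fold change was 0.17 (SE 0.17, edgeR adjusted p = 0.538), with a 95% interval of -0.20 to 0.55, and did not pass. It was 0.11 without epiBL replicate 1, 0.33 without epiBL replicate 2 and 0.04 under total counts.

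**Figure D3:**
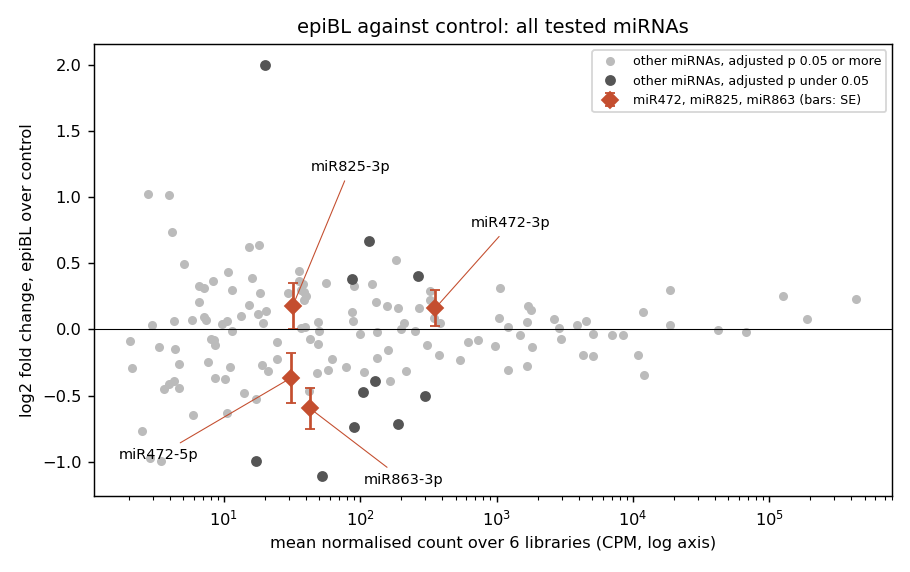
Log2 fold change (epiBL over control) against the mean normalised count (CPM, log axis) for the 148 tested miRNAs. miR863-3p, at -0.60, is among the 8 sequences that fell; miR472-5p, miR472-3p and miR825-3p, at -0.37, 0.16 and 0.17, did not pass.

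The order of levels was miR472-3p first, at a mean of 353.6 CPM over the 6 libraries, followed by miR863-3p at 42.7, miR825-3p at 31.9, miR472-5p at 30.9 and miR863-5p at 1.65 CPM. The difference between miR825-3p and miR472-5p was not tested, and their order varied between libraries. miR825-3p was the higher in each epiBL library and in control replicate 2, and the lower in control replicates 1 and 3. With epiBL, miR863-3p was above miR825-3p in replicates 1 and 2 and below it in replicate 3, whereas in controls it was above it in each of the 3 libraries. The log2 ratio of miR863-3p to miR825-3p was -0.03 ± 0.47 with epiBL and 0.80 ± 0.10 in controls (SD, n = 3 each), a difference of -0.83. The log2 ratio of miR863-3p to miR472-3p differed by -0.81, and that of miR825-3p to miR472-3p by 0.03. Two-sided exact permutation tests gave 0.1, 0.1 and 0.9, and the first 2, at the smallest p this design allows, became 0.167 after adjustment over the 5 ratios computed.

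Summed per family, miR863 fell by 0.54 on the log2 scale (SE 0.15, edgeR adjusted p = 0.0282) among 86 families, of which 3.49% fell. Nearly all of these reads are miR863-3p, so the sum is no second line of evidence. The miR863 sum lost its call under RLE factors, in DESeq2, with no filter and in 4 of the 6 fits that left out a library. The miR472 sum had a log2 fold change of 0.14 (SE 0.12, edgeR adjusted p = 0.572) and turned negative without epiBL replicate 3 (-0.0162) and under total counts (-0.0205).

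MIR863 lies next to 2 other annotated miRNA precursors on the plus strand of chromosome 4. MIR5026 and MIR850 lie wholly inside AT4G13495 (chr4:7842967-7846774, plus strand), an annotated noncoding RNA gene, and 178 of the 303 bases of the MIR863 precursor overlap its end. The mature miR863-5p lies inside that gene and miR863-3p beyond it. These neighbours were added after the annotation and the counts had been seen. miR5026-3p had 29.4, 42.2 and 34.1 CPM in epiBL replicates 1 to 3, against 49.6, 47.0 and 50.9 CPM in control replicates 1 to 3. Its groups did not overlap, and its log2 fold change of -0.47 (SE 0.16, edgeR adjusted p = 0.0772) did not pass. miR850-5p had 26.3, 20.2 and 20.7 CPM in epiBL replicates 1 to 3, against 27.0, 26.6 and 25.0 CPM in control replicates 1 to 3. Its groups overlapped, and its log2 fold change of -0.22 (SE 0.18, edgeR adjusted p = 0.469) did not pass. The log2 ratio of miR863-3p to miR5026-3p was -0.08 ± 0.41 with epiBL and 0.08 ± 0.14 in controls (SD, n = 3 each), a difference of -0.16 that the exact permutation test did not separate (p = 0.5). Against miR850-5p the log2 ratio differed by -0.41 (exact permutation p = 0.1, or 0.167 adjusted over the 5 ratios).

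**Figure D4:**
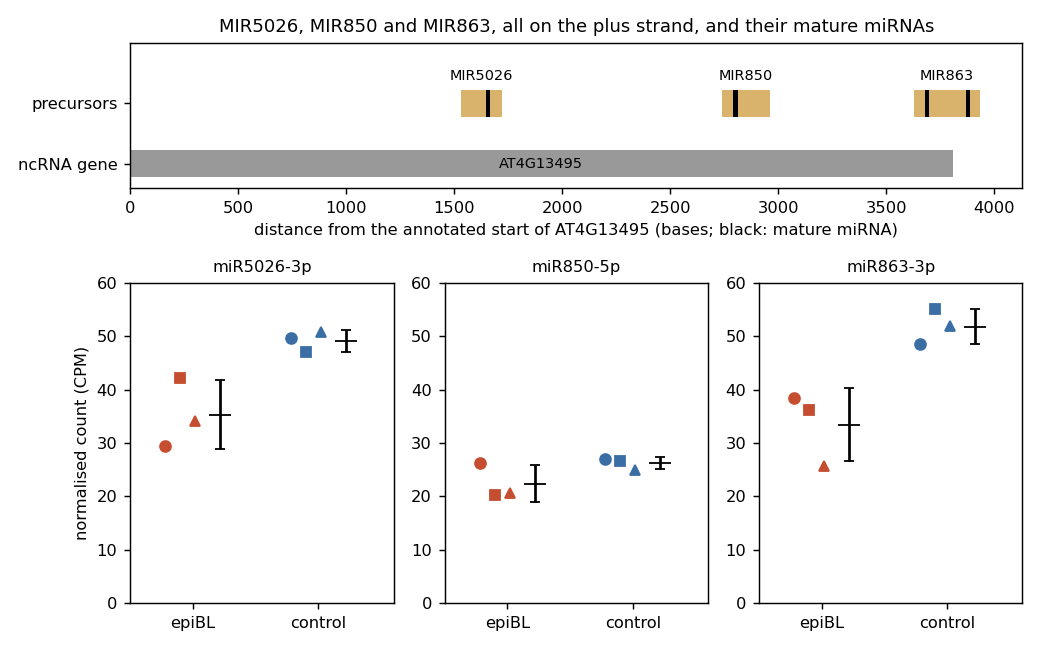
Above, the precursors MIR5026, MIR850 and MIR863 by distance in bases from the start of AT4G13495, with mature sequences in black. Below, normalised counts (CPM) in each library with mean ± SD: miR5026-3p and miR863-3p have all epiBL libraries below all controls, and miR850-5p has overlapping groups.

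Across the 6 libraries, the profiles closest to that of miR863-3p were those of miR168b-3p, miR408-5p and miR397a-5p. Likeness was the root mean square difference of log2 normalised counts, each centred on its own mean, and was 0.128, 0.153 and 0.170 for these 3, while miR863-3p itself varied by 0.371 about its mean. All 3 also fell, with log2 fold changes of -0.47, -0.50 and -0.74 and edgeR adjusted p-values of 0.0270, 0.0270 and 0.000358. The profiles closest to miR472-3p were those of miR158b-3p (0.0503), miR403-3p (0.0735) and miR166a/b/c/d/e/f/g-3p (0.0853). Those closest to miR472-5p were miR840-5p (0.0995), miR860-3p (0.159) and miR399a-3p (0.171), and those closest to miR825-3p were miR171b-5p (0.109), miR841a-5p (0.110) and miR162a/b-3p (0.120). None of these 9 passed the test. The libraries are shared by all of these profiles, so a closeness here describes these 6 libraries only. The difference between the groups is part of each centred profile. A like fold change among close profiles, passed or not, was therefore built in and is no separate result.

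A list of 8 further families linked to Arabidopsis defence held 19 sequences, of which 16 were tested. Among the 16, 0 rose, 1 fell and 15 did not pass, with a median log2 fold change of 0.02, beside 0.00 over all 148. Over all 148, 8.11% were called. In 7 of the 16 the groups did not overlap, a larger share than the 41 of all 148 (27.7%). This difference in share was not tested, and the list was chosen with earlier results of these data known. The one that fell was miR398a-5p (-1.11, SE 0.15, edgeR adjusted p = 0.000237), the 5p strand of a precursor whose 3p strand targets superoxide dismutase mRNAs. The most abundant member of each family did not pass. Those of families acting on hormone and RNA-silencing factors were miR160a/b/c-5p, which targets auxin response factors (0.18, SE 0.11), miR393b-3p, a partner strand of the auxin receptor regulator (-0.23, SE 0.10), and miR403-3p, which targets ARGONAUTE2 (0.30, SE 0.14). The others were miR398b/c-3p (-0.02, SE 0.10), miR400-5p (0.06, SE 0.12), miR773a-3p (-0.15, SE 0.43), miR844-3p (0.10, SE 0.23) and miR858a-5p (-0.27, SE 0.25). The auxin receptor regulator itself, miR393a/b-5p, lay the other way from miR393b-3p (0.29, SE 0.10, edgeR adjusted p = 0.0772). The other partner strand, miR393a-3p, was at -0.32 (SE 0.11, edgeR adjusted p = 0.0772), and neither passed.

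Of 33 listed sequences of 22 nt, the length class of miR472-3p, 16 were tested, and edgeR called 0, against 12 of all 148 (8.11%). Of these 16, 3 had an unadjusted edgeR p under 0.05, as had 35 of all 148, and limma-trend called 0. DESeq2 was run without this filter, on all 257 sequences with a read, and called 1 of 22 nt. The median log2 fold change of the 16 was 0.06 in edgeR, beside 0.00 over all 148. Among the 16, miR472-3p, at 0.16, lay between the lowest value of -0.32 and the highest of 1.02.

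**Figure D5:**
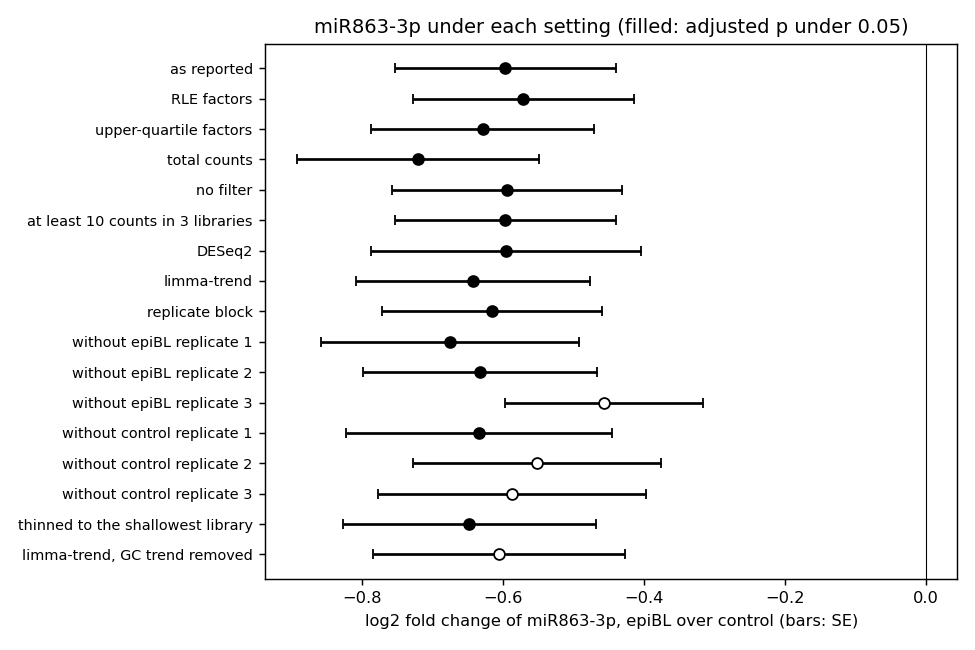
Log2 fold change of miR863-3p (epiBL over control) with its SE as reported and under 16 alternatives; filled points have an adjusted p under 0.05. All values are negative, from -0.72 to -0.46, and 12 of the 16 alternatives keep the call.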

How the data were processed

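The authors deposited raw read counts of mature miRNA sequences in 6 libraries of total RNA from seedlings (mirVana isolation, TruSeq small RNA libraries, Illumina sequencing, per the labels' protocols). Per the file headers, only reads identical to a mature sequence are counted, so reads with trimmed, extended or edited ends are missing from these levels, and a variant in the plants would remove reads. The submitters' processing notes name TAIR10, whereas which aligner, trimming and miRNA database release were used is not given in the sources used here. The unadjusted p-value and the signed fold change, in which a value below -1 is a fall, are the authors' own comparison, per the file headers, which call it 0 min against 90 min. The labels give 90 min for both groups, and groups here follow the labels. Positions come from exact matches of the deposited sequences to RefSeq TAIR10.1, which also supplied the precursor and mRNA letters.

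The tools were edgeR 4.0.16, DESeq2 1.42.0 and limma 3.58.1, run in R 4.3.3. Rows were kept by filterByExpr (minimum count 10, total 15), scaled by TMM and tested with edgeR's robust quasi-likelihood F test over all 148 rows with Benjamini-Hochberg adjustment, at a threshold of 0.05. Standard errors are the size of the log2 fold change over the root of F. Arm ratios used counts plus 0.5 in limma. Structures were predicted with RNAfold 2.7.2. The edgeR fit was run on simulated counts with the same spread for every miRNA, and the arm test on simulated ratios. Both are simpler than these data, so they check the code and not the calls reported here. In the shallowest library 3 counts are 1.46 CPM, and Poisson and binomial intervals cover counting error only, since PCR copies count as reads.

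The complementary-stretch search, the MIR863 neighbours and the ratios between members were added after values or annotation had been seen. The members, lists and tests were chosen with earlier results of these data known. Named were all members, the most abundant sequence of each listed family and the 3 profiles closest to each member. No library pair agreed within sampling noise, and libraries did not group by treatment alone. By chi-square over its degrees of freedom, the closest pairs were epiBL replicates 1 and 3 (36.55) and control replicates 2 and 3 (41.98). This measure rises with depth, so pairs with epiBL replicate 3, the shallowest library at 2050074 counts, are not on an equal footing with the others. By the same measure, epiBL replicate 2 was closer to control replicate 3 (62.45) than to epiBL replicates 1 (232.8) and 3 (198.6). The cause was not tested. The labels call the replicates biological but name no separate cultures, and the p-values thus rest on the spread between these samples, which may be technical. Alternatives were other scalings and filters, DESeq2, limma-trend, a replicate block and leaving out each library. Thinning to the shallowest library, removal of a GC trend and the use of all arm pairs were chosen after seeing the data.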

Additional observations from a re-analysis of the deposited data

How the results depend on the processing

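miR863-3p kept its direction in all 16 alternatives and its call in 12, with log2 fold changes of -0.72 (total counts) to -0.46. It lost the call when control replicate 2, control replicate 3 or epiBL replicate 3 was left out (range over the 6 such fits -0.67 to -0.46) and, with 0 members called, after removal of a GC trend (-0.61). The other 3 tested members kept direction and stayed uncalled in all 16, though with 1 library omitted their log2 fold changes spanned 0.05 to 0.29 (miR472-3p), -0.49 to -0.18 (miR472-5p) and 0.11 to 0.33 (miR825-3p), and the miR472 arm ratio in all 10. The members called were 0 to 1 when 1 library was left out. Total-count scaling moved the median of all 148 miRNAs to -0.13, with 2 higher and 15 lower in place of 4 and 8, and relative to that median miR863-3p was at -0.60. All miRNAs called numbered 12 as reported, 19 in DESeq2, 22 with the replicate block, 26 at an adjusted p under 0.1 and 5 to 25 with 1 library omitted (5 without epiBL replicate 3 or control replicate 2, 7 without control replicate 3, 25 without epiBL replicate 2). Other immunity-linked miRNAs called were 2 under total counts, in DESeq2 and with the replicate block, and 1 to 3 when 1 library was left out. Those of 22 nt were 1 in the same 3 settings and 0 to 1 when 1 library was left out. Arm pairs called were 2 with the replicate block, 0 over all 75 pairs with reads in both arms, and 0 to 2 with 1 library omitted. Families called were 7 as reported, 1 under RLE factors, 2 with no filter, 2 in DESeq2 and 0 to 13 with 1 library omitted. The miR863 sum was then -0.56 under RLE factors, -0.54 with no filter and -0.58 in DESeq2, all uncalled, and -0.65 to -0.47 with 1 library omitted. The miR472 sum changed sign to -0.0205 under total counts and spanned -0.0162 to 0.27 with 1 library omitted. For all of these, the cause was not tested. Replicate numbers gave no pairing: same-numbered libraries deviated together with correlations of -0.097, 0.138 and -0.109, and their own number was the best match for 2 of 6. The replicate block left miR863-3p at -0.62. Depth limits miR863-5p, with 4 to 9 reads a library.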
